A study of Homo sapiens with 12 samples.

Results

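Expression of 9 genes of the complement system was examined in RCC4 cells after knockdown of MESH1, ATF4 or both. The genes were C3, the central component, the proteases C1R, C1S, CFB and CFI, and the regulators CD46, CD55, CD59 and SERPING1. They were 9 of 11963 genes measured and were read by 16 probe sets, each of which the platform table gives to exactly 1 of the 9 symbols. The 9 genes were selected on values measured on these same arrays, so their differences and calls are given as a description and carry no p-value.

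Complement is a cascade of plasma proteins that marks and lyses microbes and damaged cells. The classical pathway starts when C1q, with the proteases C1r and C1s, leads to cleavage of C4 and C2, whereas the alternative pathway amplifies the cleavage of C3 through factor B. Host cells hold the cascade in check with membrane proteins and plasma inhibitors, and tissues outside the liver, the kidney among them, transcribe complement genes of their own.

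RCC4 is an established cell line from a human clear cell renal carcinoma. In the siMESH1 group MESH1 was targeted by 1 siRNA, in the siATF4 group ATF4 by a pool of siRNAs and in the siMESH1+siATF4 group both genes at once, and the siNT group received a non-targeting siRNA, with 3 biological replicates of each and 12 arrays in all. The methods give 40 pmol of siRNA per transfection, for 72 h. How the 40 pmol was divided in siMESH1+siATF4 was not given, so equal doses of each siRNA across groups cannot be assumed. MESH1 is a phosphatase of cytosolic NADPH encoded by HDDC3, and ATF4 is the main transcription factor of the integrated stress response, so the design asks which part of the response to MESH1 knockdown changes when ATF4 is silenced at the same time. A single line and a single MESH1 siRNA limit the groups as a model of either loss.

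Values are log2 signals from which the siNT mean was subtracted, and the table holds no absolute level, so the genes cannot be ranked by abundance and the line could not be checked against its markers. ATF4 itself fell by 2.31 ± 0.07 on the log2 scale in siATF4 relative to siNT (SE, 4.95-fold), fell by 2.32 ± 0.07 in siMESH1+siATF4 relative to siNT (5.01-fold), and differed by -0.03 ± 0.07 between siMESH1 and siNT. HDDC3 had 0 named probe sets, so MESH1 silencing was not checked here. Relative to siNT, 10 housekeeping genes averaged -0.26 with siMESH1, -0.17 with siATF4 and -0.22 with siMESH1+siATF4, and centring on these genes shifts every gene of a group upward by that amount. Their medians were nearer to siNT (-0.18, -0.04 and -0.08), and their lowest values were -0.66, -0.61 and -0.94. Of the 10, 2, 2 and 1 were themselves called lower, where 8.19%, 6.52% and 9.65% of all genes were called. This reference was therefore unsteady, and calls gained or lost under it depend on those genes. The medians of the 12 arrays lay between -0.01 and 0.03. Replicate 2 of siNT had the highest siNT value for 9 of 9 complement genes and for 40.0% of all genes. Of the markers of other cell types, 0 of 6 leukocyte, 0 of 5 endothelial, 0 of 4 hepatocyte and 0 of 5 fibroblast genes measured were called in any comparison. Of 7 renal carcinoma epithelium markers measured, 2 were called lower in siMESH1 than in siNT (8.19% of all genes were called). In siMESH1+siATF4 against siMESH1, 3 were higher (6.10%). In siMESH1+siATF4 against siNT, KRT18 was higher (0.63) and CA12 lower (-0.76), against 9.65%, and CA12 was also lower there than in siATF4 (-0.72). The KRT18 call in siMESH1 against siNT was lost under housekeeping centring (-0.28) and without siNT replicate 2 (-0.49). The part of these markers in the results was not tested. In these bulk samples, fewer cells of a type and less RNA per cell cannot be told apart.

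The 9 genes lie on 6 chromosomes. C1R and C1S are immediate neighbors on chromosome 12. CD46 and CD55 both lie on chromosome 1, where CD46 follows CR1L and CD55 lies between C4BPA and CR2, all genes of complement regulators or receptors. C3 is on chromosome 19, CFB on chromosome 6, CFI on chromosome 4, and CD59 and SERPING1 are on chromosome 11.

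RefSeq promoter windows of 300 bases on GRCh38.p14, with 250 bases before and 50 after a start, were matched by symbol to 6 of the 9 genes (11 windows for C1R, CFB, CFI, CD46, CD55 and CD59). Both strands were searched for the interferon-stimulated response element core TTTCNNTTTC, held by 3.57% of all 35116 windows, the gamma-activated site TTCNNNGAA (7.66%), an NF-kB site (11.3%), the ATF4 composite element core TGATGNAA (3.62%) and the cyclic AMP response element TGACGTCA (1.85%). CFB, which encodes factor B of the alternative pathway, held the first 3 of these motifs, and C1R held a gamma-activated site in 1 of its 2 windows. The CFB window is chr6:31945845-31946144 on the plus strand and the C1R window is chr12:7091844-7092143 on the minus strand. They are shown as examples of windows that held motifs, and the capitals mark the motif letters. The transcript of CFI, whose window held none, had Pearson correlations over the arrays of 0.94 with C1R and 0.925 with C1S. That of CFB correlated with C3 at 0.963, but its probe sets disagreed in siMESH1 against siATF4 (-0.88 for 202357_s_at and -0.14 for 211920_at). Whether the motifs bear on the transcripts was not tested.
CFB promoter: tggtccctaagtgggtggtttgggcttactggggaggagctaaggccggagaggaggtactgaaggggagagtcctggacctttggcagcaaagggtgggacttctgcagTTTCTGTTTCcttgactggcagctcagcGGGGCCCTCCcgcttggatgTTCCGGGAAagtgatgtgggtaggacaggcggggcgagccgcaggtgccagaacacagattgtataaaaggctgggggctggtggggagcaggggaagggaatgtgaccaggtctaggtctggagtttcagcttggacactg
C1R promoter: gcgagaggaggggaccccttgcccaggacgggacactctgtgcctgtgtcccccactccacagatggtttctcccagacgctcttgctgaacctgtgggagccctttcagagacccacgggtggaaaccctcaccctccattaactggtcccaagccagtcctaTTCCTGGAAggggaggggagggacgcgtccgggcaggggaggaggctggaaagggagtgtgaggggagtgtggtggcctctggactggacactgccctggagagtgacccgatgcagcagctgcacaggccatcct

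In the CFB window the response element core began at position -140 from the start, the NF-kB site at -112 and the gamma-activated site at -92, with no overlap among them. The gamma-activated site of C1R began at -86, and its letters read the same motif on either strand, as did those of CFB. Of the other windows, 2 overlapping ones of CD59 shared a gamma-activated site, and the windows of CFI, CD46 and CD55 held none of the motifs. The ATF4 composite element core and the cyclic AMP response element were found in 0 of the 11 windows. These matches describe letters in the windows and are not measured binding sites.

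C3 encodes the protein on which all complement pathways converge, and of the 9 genes it had the widest range among the groups. Its values were -0.979, -1.003 and -1.126 in siMESH1, 0.40, 0.57 and 0.49 in siATF4 arrays, and 0.36, 0.31 and 0.22 in siMESH1+siATF4, against -0.09, 0.12 and -0.03 in siNT. All siMESH1 arrays lay below every other array, and the arrays of siATF4 and of siMESH1+siATF4 lay above every siNT array without overlapping each other. Such separation was common with 3 arrays per group, which holds for each gene below. Against siNT, arrays did not overlap for 45.1% of all genes with siMESH1, 40.1% with siATF4 and 44.8% with siMESH1+siATF4. Between the other groups the share ran from 29.2% (siMESH1+siATF4 against siATF4) to 45.6% (siMESH1 against siATF4). C3 fell by 1.04 ± 0.07 in siMESH1 relative to siNT (SE, n = 3 each), which is 2.05-fold lower. It rose by 1.33 ± 0.07 in siMESH1+siATF4 relative to siMESH1, 2.52-fold higher, and ranked 28 of 11963 genes by the size of that difference. The siATF4 minus siNT difference of 0.48 ± 0.07 stayed just under the minimum of 0.5 that a call requires, and was called without siNT replicate 2 (0.55), without siATF4 replicate 1 (0.53) or under housekeeping centring (0.66). The siMESH1+siATF4 minus siNT difference was 0.30 ± 0.07 and was called under housekeeping centring (0.52).

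**Figure D1:**
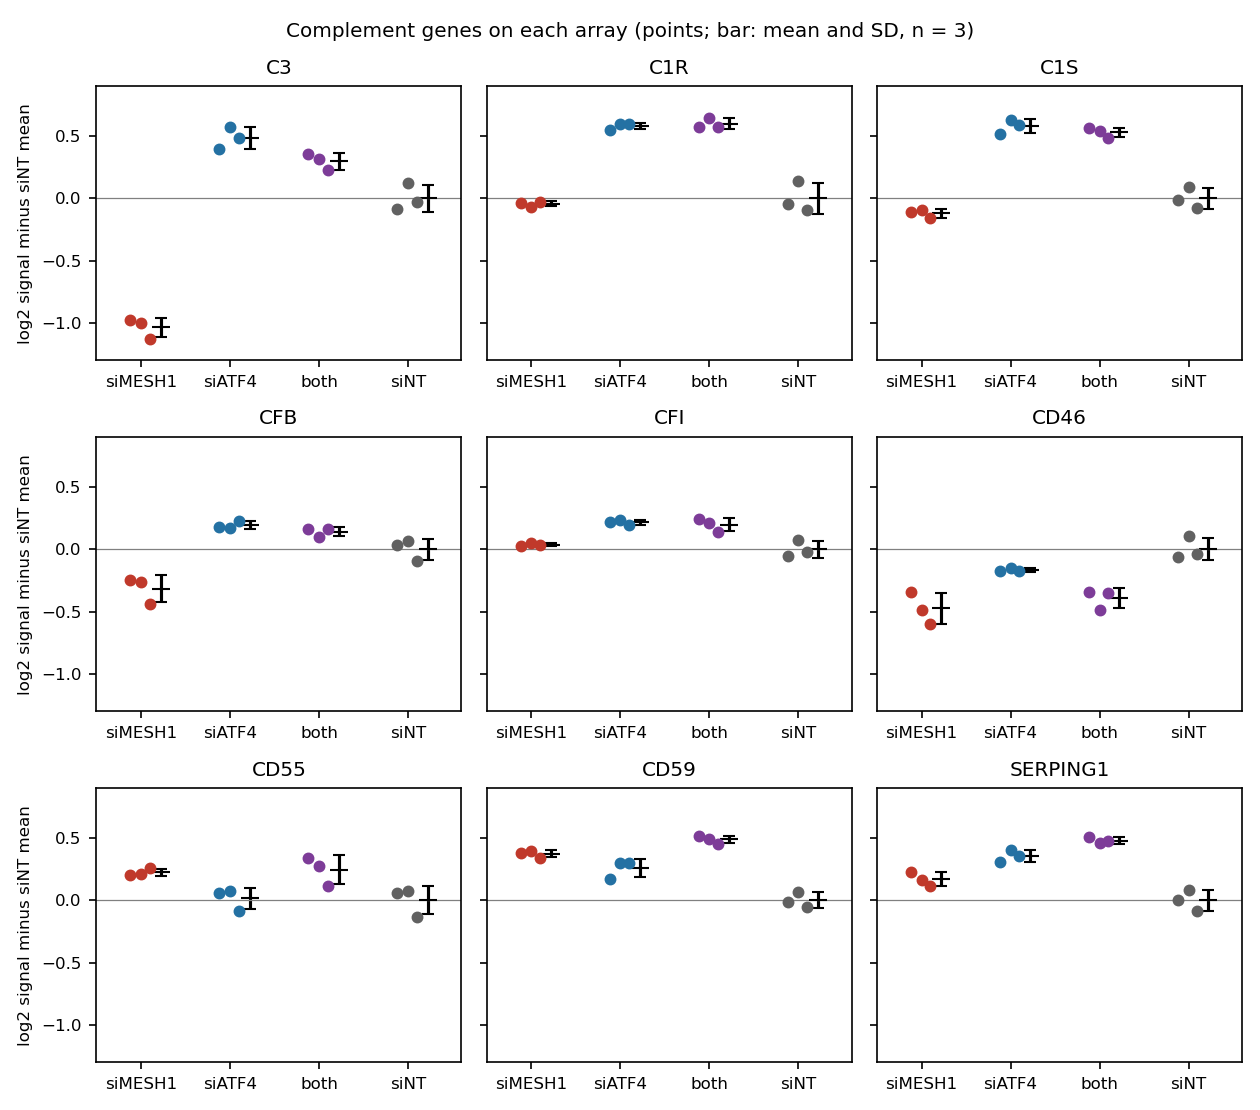
Values of the 9 complement genes on each of 12 arrays (vertical axis, log2 signal less the siNT mean), with the groups along the horizontal axis (siMESH1+siATF4 is marked "both"). Points are arrays, and the bar beside them is the mean and SD of 3 arrays. C3 averaged -1.04 in siMESH1, whereas C1R averaged 0.58 in siATF4 and 0.60 in siMESH1+siATF4.

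The neighbors C1R and C1S, which encode the serine proteases of the C1 complex, were higher wherever ATF4 was silenced and changed little with MESH1 knockdown alone. C1R had values of -0.03, -0.07 and -0.03 in siMESH1, 0.55, 0.59 and 0.59 in siATF4 arrays, and 0.57, 0.65 and 0.57 in siMESH1+siATF4, against -0.05, 0.14 and -0.09 in siNT. The 6 arrays with ATF4 siRNA all lay above the 6 arrays without it. C1R rose by 0.58 ± 0.06 in siATF4 (1.49-fold) and by 0.60 ± 0.06 in siMESH1+siATF4 (1.51-fold) relative to siNT, and by 0.64 ± 0.06 in siMESH1+siATF4 relative to siMESH1 (1.56-fold).

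C1S had values of -0.11, -0.09 and -0.16 in siMESH1, 0.52, 0.62 and 0.59 in siATF4 arrays, and 0.56, 0.54 and 0.49 in siMESH1+siATF4, against -0.02, 0.09 and -0.08 in siNT. The arrays with ATF4 siRNA again lay apart from those without it. C1S rose by 0.58 ± 0.05 in siATF4 (1.49-fold) and by 0.53 ± 0.05 in siMESH1+siATF4 (1.44-fold) relative to siNT, and by 0.65 ± 0.05 in siMESH1+siATF4 relative to siMESH1 (1.57-fold). Its call in siMESH1+siATF4 against siNT was lost without siNT replicate 3 (0.49). C1R and C1S were each read by a single probe set (212067_s_at and 208747_s_at), and the suffix of both marks possible cross-hybridisation. In siMESH1 against siNT the differences were -0.04 ± 0.06 for C1R and -0.12 ± 0.05 for C1S, neither called, and both turned positive under housekeeping centring (0.22 for C1R and 0.14 for C1S), as C1R did without siNT replicate 2 (0.03).

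CFB encodes factor B, the protease subunit of the alternative pathway convertase. Its mean over probe sets was -0.24, -0.26 and -0.44 in siMESH1, 0.18, 0.17 and 0.23 in siATF4 arrays, and 0.16, 0.10 and 0.16 in siMESH1+siATF4, against 0.03, 0.06 and -0.10 in siNT. The order of the groups was that of C3, over a narrower range. CFB was 0.51 ± 0.06 lower in siMESH1 than in siATF4 and was called there, but its differences from siNT were under the minimum with siMESH1 (-0.32 ± 0.06), with siATF4 (0.19 ± 0.06) and with both (0.14 ± 0.06).

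The 2 probe sets of CFB disagreed in size. Probe set 202357_s_at read -0.46, -0.48 and -0.56 in siMESH1 and 0.35, 0.39 and 0.41 in siATF4, a difference of -0.88 ± 0.07, and was 0.74 ± 0.07 higher in siMESH1+siATF4 than in siMESH1. Probe set 211920_at read -0.03, -0.05 and -0.32 in siMESH1 and 0.01, -0.05 and 0.05 in siATF4, a difference of -0.14 ± 0.08, and was 0.18 ± 0.08 higher in siMESH1+siATF4 than in siMESH1. Both differences were called for the first probe set, against backgrounds of 9.39% and 6.69% of 19064 probe sets, and neither for the second. The CFB call in siMESH1 against siATF4 was lost when the first probe set, whose suffix marks possible cross-hybridisation, was left out (-0.14), without siMESH1 replicate 3 (-0.45), without siATF4 replicate 3 (-0.49) and under housekeeping centring (-0.42).

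CFI encodes factor I, the protease that inactivates C3b and C4b. Its values were 0.03, 0.05 and 0.04 in siMESH1, 0.22, 0.24 and 0.20 in siATF4 arrays, and 0.24, 0.21 and 0.14 in siMESH1+siATF4, against -0.06, 0.08 and -0.02 in siNT. The arrays with ATF4 siRNA lay above all others, yet the differences from siNT of 0.22 ± 0.05 in siATF4 and 0.20 ± 0.05 in siMESH1+siATF4 were under the fold minimum.

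SERPING1 encodes the C1 inhibitor, the serpin that inactivates C1r and C1s. Its values were 0.23, 0.17 and 0.11 in siMESH1, 0.30, 0.40 and 0.36 in siATF4 arrays, and 0.51, 0.46 and 0.47 in siMESH1+siATF4, against 0.00, 0.09 and -0.09 in siNT. No array of any group overlapped another group. The means stood at 0.17 with siMESH1, 0.35 with siATF4 and 0.48 with siMESH1+siATF4, each SE 0.06, and none was called against siNT, although the last was called without siNT replicate 2 (0.52). Housekeeping centring gave calls with siATF4 (0.53) and with siMESH1+siATF4 (0.70).

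**Figure D2:**
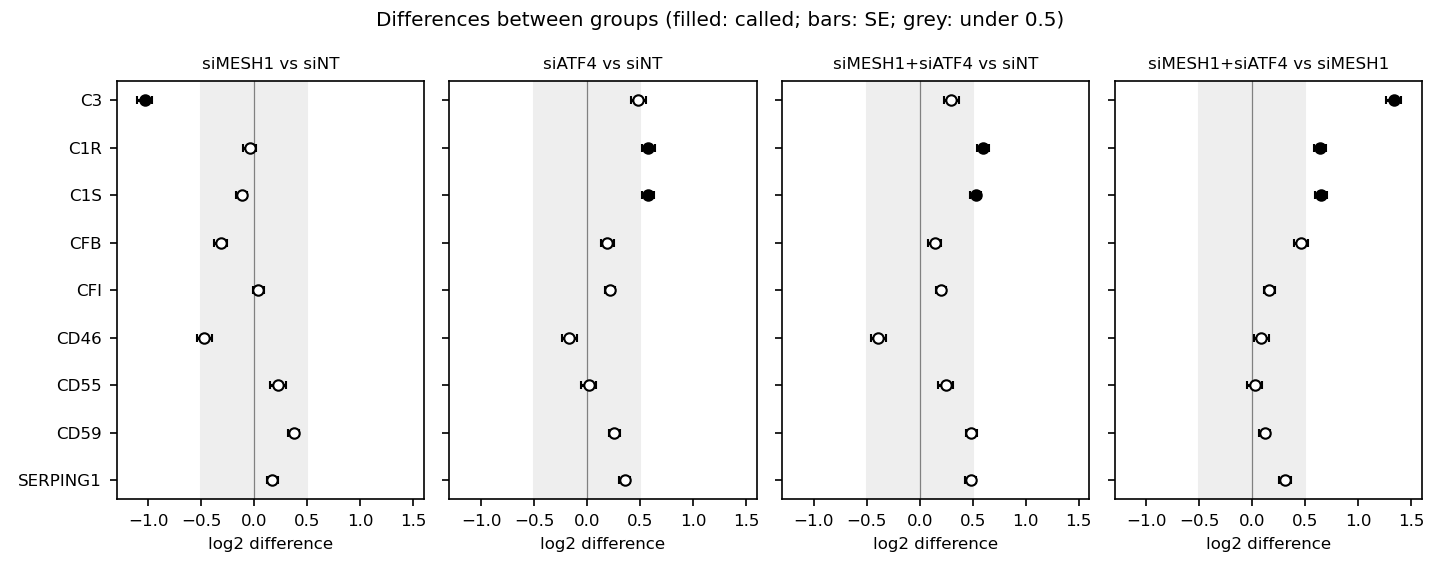
Log2 difference (horizontal axis) of each complement gene (vertical axis) in 4 comparisons, first group minus second. Bars are standard errors of the fit, filled points were called and the grey band spans differences under 0.5. Only C3 was called in siMESH1 against siNT (-1.04), and C3, C1R and C1S were called in siMESH1+siATF4 against siMESH1 (1.33, 0.64 and 0.65).

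Of the 3 membrane regulators, CD46 was lower and CD55 and CD59 were higher on every siMESH1 and siMESH1+siATF4 array than on any siNT array. Arrays were likewise apart for 45.1% of all genes in siMESH1 against siNT and for 44.8% in siMESH1+siATF4 against siNT. CD46, the cofactor with which factor I cleaves C3b on host cells, had values of -0.34, -0.49 and -0.60 in siMESH1, -0.18, -0.15 and -0.17 in siATF4 arrays, and -0.35, -0.48 and -0.35 in siMESH1+siATF4, against -0.06, 0.10 and -0.04 in siNT. It lay below siNT on all arrays with siRNA against MESH1 or ATF4, though the siATF4 value turned to 0.00 under housekeeping centring. The difference between siMESH1 and siNT was -0.47 ± 0.07 and that between siMESH1+siATF4 and siNT -0.39 ± 0.07, and the difference between siMESH1+siATF4 and siMESH1 was 0.08 ± 0.07. The first reached a call without siMESH1 replicate 1 (-0.54) or without siNT replicate 1 (-0.51).

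All 3 probe sets of CD46 were lower in siMESH1 than in siNT, and the suffix of each marks possible cross-hybridisation. Probe set 208783_s_at was called (-0.52 ± 0.06), against 8.95% of all probe sets, while 207549_x_at (-0.45 ± 0.13) and 211574_s_at (-0.45 ± 0.09) were not.

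CD59, which blocks assembly of the membrane attack complex, had values of 0.38, 0.40 and 0.34 in siMESH1, 0.17, 0.30 and 0.30 in siATF4 arrays, and 0.51, 0.49 and 0.45 in siMESH1+siATF4, against -0.01, 0.07 and -0.06 in siNT. Each single knockdown lay above siNT and the combined knockdown above both. With siMESH1 the difference from siNT was 0.37 ± 0.05, with siATF4 0.26 ± 0.05 and with siMESH1+siATF4 0.49 ± 0.05. Among its 4 probe sets, 212463_at (0.60 ± 0.06) and 200983_x_at (0.58 ± 0.06) were called in siMESH1+siATF4 against siNT, where 10.5% of all probe sets were. Not called were 200984_s_at (0.39 ± 0.06) and 200985_s_at (0.38 ± 0.06). The suffix of all but 212463_at marks possible cross-hybridisation. The gene as a whole was called there without siNT replicate 2 (0.52), without siMESH1+siATF4 replicate 3 (0.50), from 212463_at alone (0.60) and under housekeeping centring (0.71), which also gave a call in siMESH1 against siNT (0.63).

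CD55, or decay-accelerating factor, which breaks up the C3 and C5 convertases, had values of 0.20, 0.21 and 0.26 in siMESH1, 0.06, 0.07 and -0.08 in siATF4 arrays, and 0.34, 0.28 and 0.12 in siMESH1+siATF4, against 0.06, 0.07 and -0.13 in siNT. Arrays with MESH1 siRNA lay above those without it. With siMESH1 the difference from siNT was 0.22 ± 0.07, with siATF4 0.02 ± 0.07 and with siMESH1+siATF4 0.24 ± 0.07, and its 2 probe sets gave 0.27 ± 0.10 and 0.18 ± 0.09 in siMESH1.

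**Figure D3:**
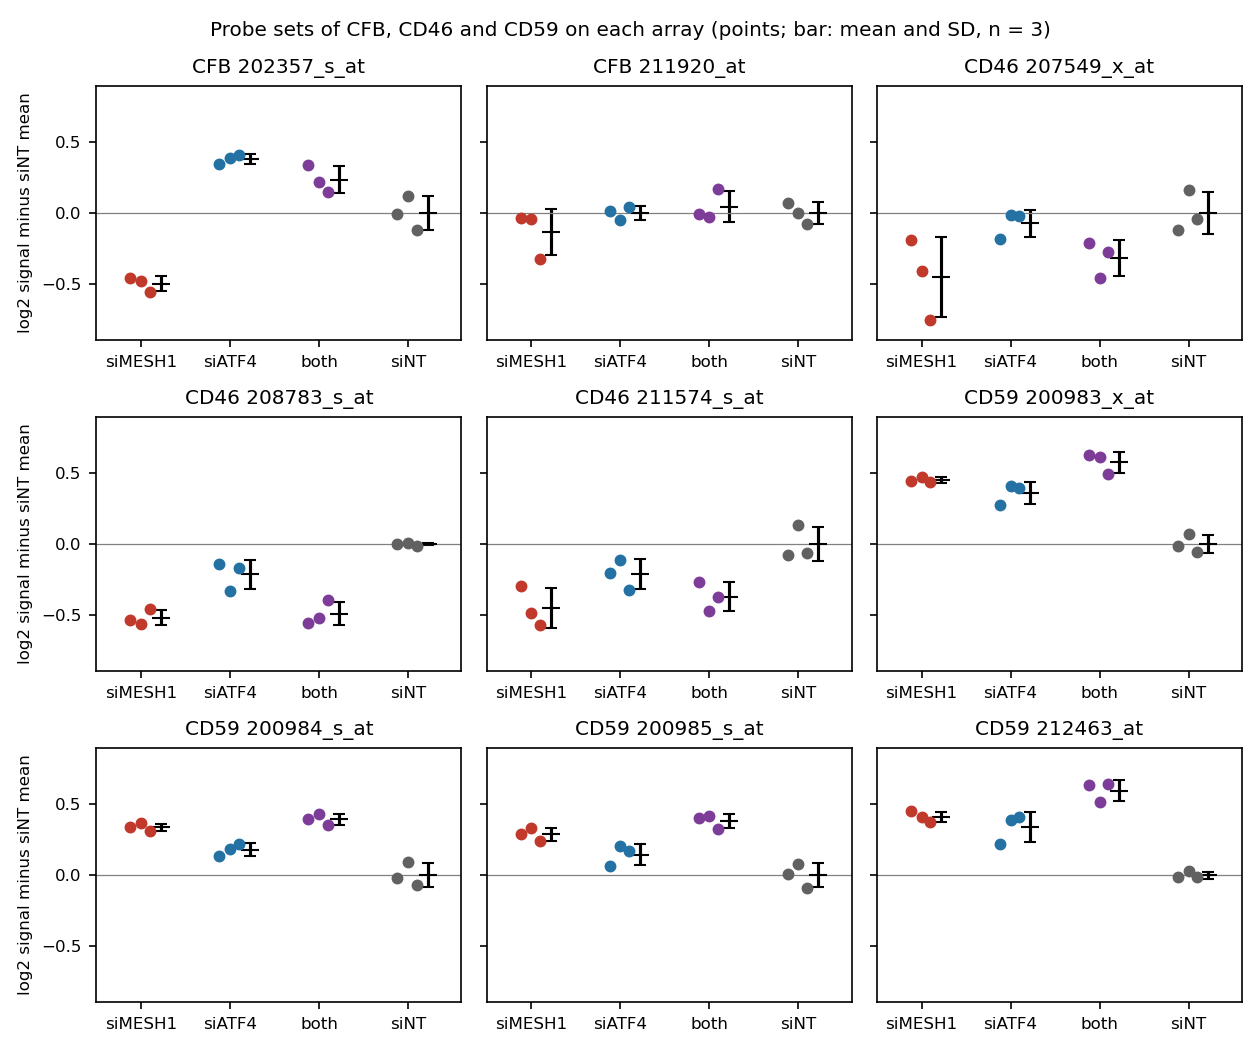
Values of the 9 probe sets of CFB, CD46 and CD59 on each array (vertical axis, log2 signal less the siNT mean), with the groups along the horizontal axis (siMESH1+siATF4 is marked "both"). Points are arrays and the bar is the mean and SD of 3. CFB probe set 202357_s_at differed by -0.88 between siMESH1 and siATF4 and 211920_at by -0.14.

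Counted by comparison, calls were few and C3, C1R and C1S made nearly all of them. A call required a difference of at least 0.5 together with an adjusted p (Benjamini-Hochberg, all genes) under 0.05. In siMESH1 against siNT, 1 of 9 genes was called (C3, lower), against 8.19% of all genes. In siATF4 against siNT, 2 of 9 were called (C1R and C1S, higher), against 6.52%, and the same pair was called in siMESH1+siATF4 against siNT, against 9.65%. These comparisons share the siNT arrays. In siMESH1+siATF4 against siMESH1, 3 of 9 were called (C3, C1R and C1S, higher), against 6.10%, and in siMESH1 against siATF4, 4 of 9 (these 3 and CFB, lower), against 8.66%. In siMESH1+siATF4 against siATF4, 0 of 9 were called, against 1.63%, and CD59 alone passed the adjusted p there with no fold minimum (0.23 ± 0.05), as did 11.7% of all genes.

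The median difference of the 9 genes was -0.04 in siMESH1 against siNT, where that of all genes was 0.03. It was 0.26 in siATF4 and 0.30 in siMESH1+siATF4 against siNT, where those of all genes were 0.02 and 0.01, and 0.31 in siMESH1+siATF4 against siMESH1, where that of all genes was -0.01. Because the 9 genes were chosen with these values known, their counts and medians are not read against the background.

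How the siRNA dose was divided in siMESH1+siATF4 was not given, and equal MESH1 silencing with and without ATF4 siRNA was not checked. The effect of ATF4 siRNA could be set side by side with and without MESH1 siRNA on separate arrays. For C3 it was 1.33 ± 0.07 on top of siMESH1 and 0.48 ± 0.07 alone, an interaction of 0.85 ± 0.10, the only one called among the 9 genes, where 4.31% of all genes were called. For CFB the effects were 0.46 ± 0.06 on top of siMESH1 and 0.19 ± 0.06 alone, an interaction of 0.27 ± 0.09 that was not called. C1R (0.64 and 0.58) and C1S (0.65 and 0.58) had interactions of 0.06 ± 0.08 and 0.07 ± 0.08, both below 0 under housekeeping centring (-0.15 and -0.14). The interactions of the other genes lay between -0.14 for CD59 and 0.25 for CD46, and none of these was called.

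**Figure D4:**
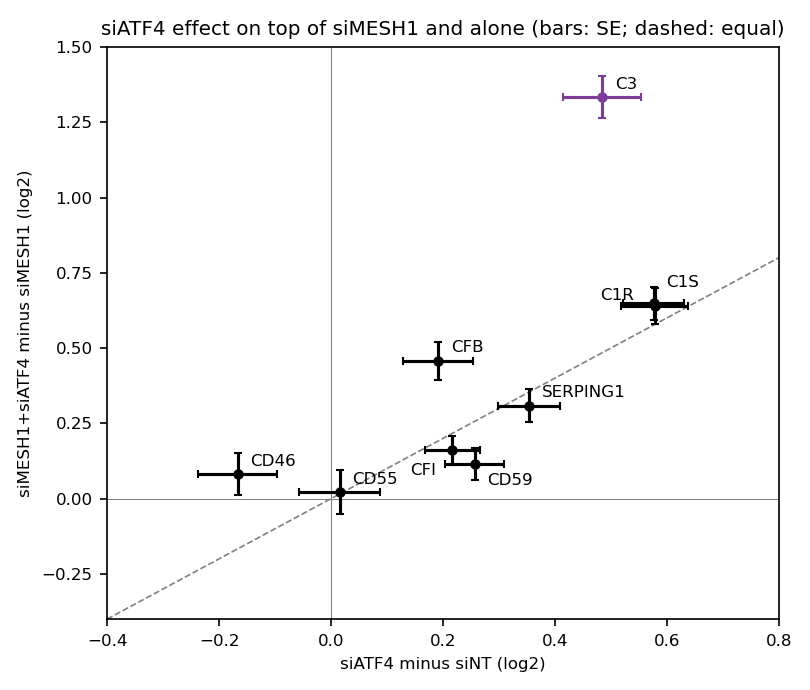
Log2 effect of siATF4 on top of siMESH1 (vertical axis, siMESH1+siATF4 minus siMESH1) and alone (horizontal axis, siATF4 minus siNT) for the 9 complement genes, with standard errors and a dashed line of equal effects. C3 (1.33 and 0.48) lay farthest from the line, and C1R (0.64 and 0.58) and C1S (0.65 and 0.58) lay near it.

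Over the 12 arrays, which share their group structure, Pearson correlations among the 9 genes are given as a description. They were 0.986 for C1R with C1S, 0.940 for C1R with CFI, 0.925 for C1S with CFI, and 0.885 for SERPING1 with C1R and with CFI. C3 correlated with CFB at 0.963 and with C1R and C1S at 0.796 and 0.857. CD55 correlated with CD59 (0.743), and CD46 ran against both CD59 (-0.789) and CD55 (-0.732). The genes most like each of the 9 over the same arrays were TMED2, CHFR and EHD4 for C3 (0.991 to 0.994), CX3CL1, IL13RA1 and SQOR for C1R (0.992 to 0.995) and SQOR, MFSD1 and EFEMP2 for C1S (0.991 to 0.993). BTBD1, VPS33B and CSTF3 were most like CFB (0.980 each), APTX, DNAJC16 and B4GALT4 most like CFI (0.962 to 0.963), and GPX4, LOXL1 and TBC1D9 most like SERPING1 (0.982 to 0.986). For the membrane regulators they were NIT2, DNAJA2 and WDR7 for CD46 (0.960 to 0.964), ADAMTSL3, WASHC5 and ZNF609 for CD55 (0.920 to 0.943) and ZNF532, CRYAB and AP2B1 for CD59 (0.984 to 0.990).

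Other complement components measured as single genes did not move as a group. The 2 probe sets of C4, given to several symbols, stand outside the counts here. Both were called higher in siMESH1+siATF4 than in siNT (0.71 and 0.78) and are described further below. The gene lists of this and the following paragraphs were chosen with earlier results of these data known. Their genes are named because they were called, so the adjusted p-values describe them and are no independent tests. Of 24 listed, 21 were measured, and 1 was called in siMESH1 against siNT, 0 in siATF4 against siNT and 1 in siMESH1+siATF4 against siNT, with medians of 0.00, -0.04 and -0.03. The shares of all genes called there were 8.19%, 6.52% and 9.65%, above those of the list. Both calls were MBL2, the mannose-binding lectin that starts the lectin pathway, with values of -0.67, -0.56 and -0.34 in siMESH1 and -0.53, -0.46 and -0.65 in siMESH1+siATF4, against -0.10, 0.33 and -0.23 in siNT. MBL2 fell by 0.52 ± 0.12 in siMESH1 (limma adjusted p = 0.0056) and by 0.55 ± 0.12 in siMESH1+siATF4 (limma adjusted p = 0.0039) relative to siNT. Both calls were lost without siNT replicate 2 (-0.35 and -0.38) and under housekeeping centring (-0.26 and -0.32). The call in siMESH1 was also lost without its replicate 1 (-0.45), and that in siMESH1+siATF4 without its replicate 3 (-0.49). CFD, or factor D, which cleaves factor B, was 0.51 ± 0.13 lower in siMESH1 than in siATF4 (limma adjusted p = 0.0080), a call lost without siATF4 replicate 3 (-0.33), without siMESH1 replicate 3 (-0.43) and under housekeeping centring (-0.42).

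Among other regulators and receptors, 23 of 29 were measured, and 2, 3 and 4 of them were called in siMESH1, siATF4 and siMESH1+siATF4 against siNT, where 8.19%, 6.52% and 9.65% of all genes were, so the siMESH1 count lay near that of all genes. THBD, thrombomodulin, an endothelial cofactor that also speeds the inactivation of C3b, was likewise lowest in siMESH1. Its values were -0.49, -0.72 and -0.84 in siMESH1, 0.72, 0.75 and 0.65 in siATF4 arrays, and 0.88, 0.93 and 0.89 in siMESH1+siATF4, against -0.06, 0.10 and -0.04 in siNT. THBD fell by 0.69 ± 0.08 in siMESH1 relative to siNT (limma adjusted p = 1.9e-05), a call lost under housekeeping centring (-0.43), and rose by 0.71 ± 0.08 in siATF4 (limma adjusted p = 1.9e-05) and by 0.90 ± 0.08 in siMESH1+siATF4 (limma adjusted p = 1.4e-06). It was 3.00-fold higher in siMESH1+siATF4 than in siMESH1 (1.58 ± 0.08).

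SUSD4, a complement inhibitor with sushi domains, was the only gene of this list called higher in siMESH1 than in siNT. Its values were 0.92, 0.92 and 0.91 in siMESH1, 0.29, 0.37 and 0.36 in siATF4 arrays, and 0.63, 0.48 and 0.47 in siMESH1+siATF4, against -0.02, 0.06 and -0.04 in siNT. It rose by 0.91 ± 0.05 in siMESH1 (limma adjusted p = 5.1e-08) and by 0.53 ± 0.05 in siMESH1+siATF4 (limma adjusted p = 6.7e-06) relative to siNT, the second call being lost without siMESH1+siATF4 replicate 1 (0.47). C3AR1, the receptor of the C3a fragment, rose by 0.77 ± 0.16 in siATF4 (limma adjusted p = 0.0023) and by 0.64 ± 0.16 in siMESH1+siATF4 (limma adjusted p = 0.0057), and its siMESH1 arrays spread between -0.44 and 0.26. PROS1, protein S, which circulates bound to C4b-binding protein, rose by 0.52 ± 0.06 in siMESH1+siATF4 (limma adjusted p = 2.7e-05) and was 0.67 ± 0.06 higher in siMESH1+siATF4 than in siMESH1. The first of these was lost without siNT replicate 3 (0.50, just under the minimum) and without siMESH1+siATF4 replicate 1 or 2 (0.49 each). ITGB2, the beta chain of complement receptors 3 and 4, rose by 0.51 ± 0.09 in siATF4 (limma adjusted p = 0.0012), a call lost without siNT replicate 2 (0.46) or 3 (0.45), without siATF4 replicate 2 (0.48) or 3 (0.45) and under array median centring (0.49).

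**Figure D5:**
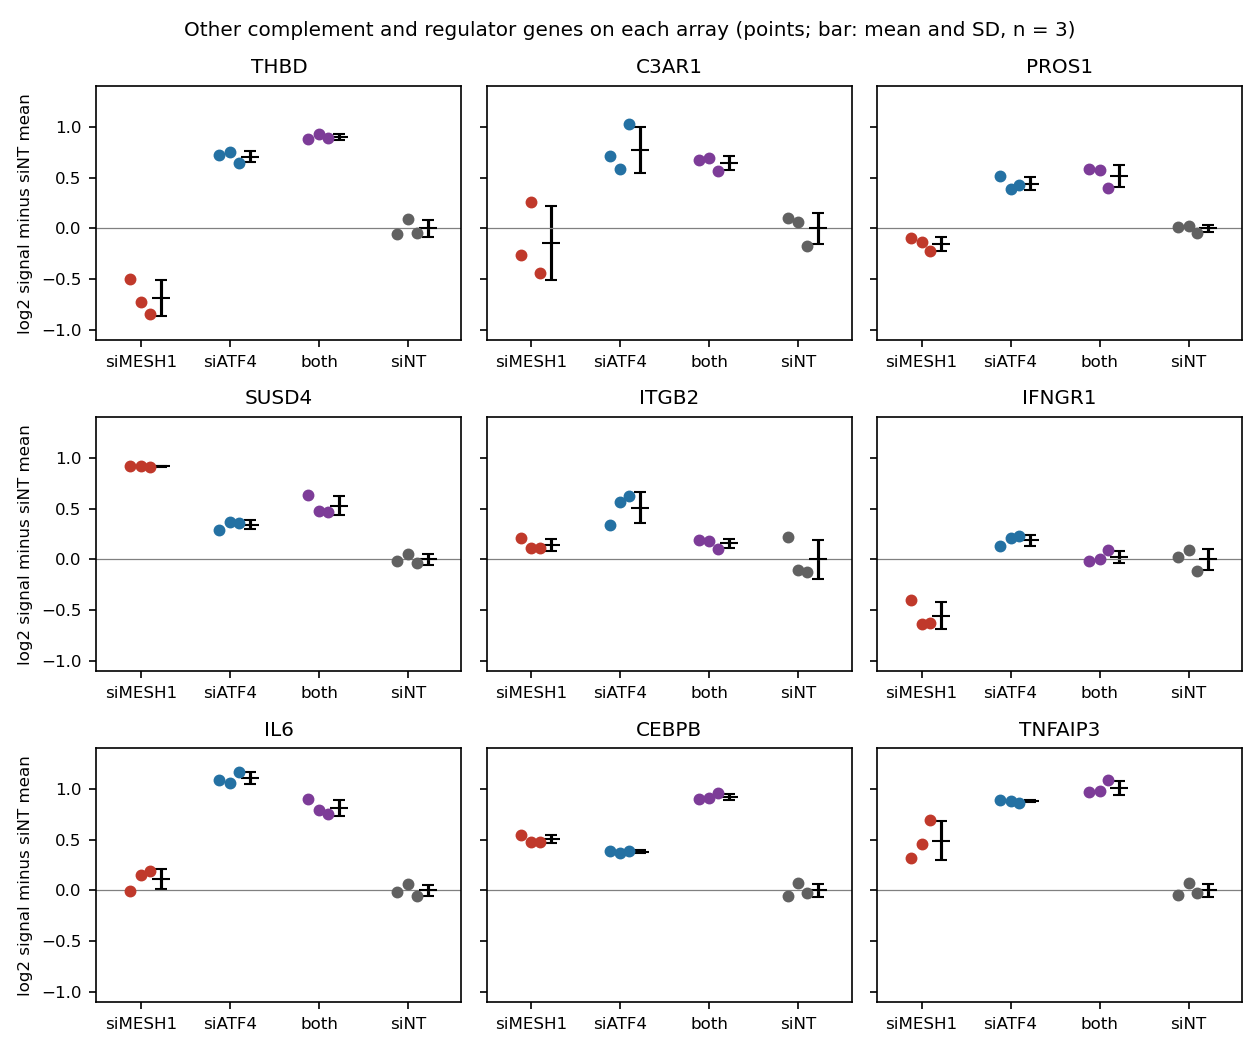
Values of 9 further genes on each array (vertical axis, log2 signal less the siNT mean), with the groups along the horizontal axis (siMESH1+siATF4 is marked "both"): 5 complement regulators and receptors and 4 genes known to act on complement transcription. Points are arrays and the bar is the mean and SD of 3. THBD differed by 1.58 between siMESH1+siATF4 and siMESH1, and IL6 by 1.10 between siATF4 and siNT.

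Of 30 genes known to act on complement transcription, chiefly cytokine, interferon and NF-kB signaling genes, 27 were measured. In siMESH1 against siNT 1 rose and 1 fell, 4 rose in siATF4 and 5 rose in siMESH1+siATF4 against siNT, and 6 rose in siMESH1+siATF4 against siMESH1. Of all genes 8.19%, 6.52%, 9.65% and 6.10% were called in these comparisons, and the siMESH1 count lay near the first of these shares. IL6, an acute phase cytokine, had values of 1.09, 1.06 and 1.17 in siATF4 and 0.90, 0.79 and 0.75 in siMESH1+siATF4, against -0.01, 0.06 and -0.05 in siNT, and rose by 1.10 ± 0.06 (limma adjusted p = 6.8e-08) and 0.81 ± 0.06 (limma adjusted p = 5.3e-07). It was not called in siMESH1, where it read -0.002, 0.15 and 0.19. IL6R, its receptor, rose by 0.59 ± 0.09 in siATF4 (limma adjusted p = 1.8e-04) and by 0.54 ± 0.09 in siMESH1+siATF4 (limma adjusted p = 2.4e-04), the second lost without siMESH1+siATF4 replicate 3 (0.48). The NF-kB feedback inhibitors TNFAIP3 and NFKBIA also rose in siATF4 (0.88 ± 0.08 and 0.63 ± 0.06) and in siMESH1+siATF4 (1.01 ± 0.08 and 0.70 ± 0.06) relative to siNT.

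IFNGR1, the ligand-binding chain of the interferon-gamma receptor, fell by 0.55 ± 0.07 in siMESH1 relative to siNT (limma adjusted p = 7.4e-05), a call lost under housekeeping centring (-0.29), and rose by 0.58 ± 0.07 in siMESH1+siATF4 relative to siMESH1 (limma adjusted p = 7.2e-05). CEBPB, an acute phase transcription factor, rose by 0.92 ± 0.05 in siMESH1+siATF4 (limma adjusted p = 1.4e-08) and by 0.50 ± 0.05 in siMESH1 (limma adjusted p = 4.7e-06) relative to siNT. The siMESH1 call of CEBPB was lost without siNT replicate 1 (0.48) or 3 (0.49), without siMESH1 replicate 1 (0.48) and under array median centring (0.48). RELB, an NF-kB subunit, and NR1H3, the liver X receptor alpha, rose by 0.59 ± 0.07 and 0.59 ± 0.08 in siMESH1+siATF4 relative to siMESH1 (limma adjusted p = 6.7e-05 and 1.6e-04). TNFAIP3 rose there by 0.52 ± 0.08 (limma adjusted p = 3.4e-04), a call lost without siMESH1 replicate 1 (0.43), without siMESH1+siATF4 replicate 3 (0.48) and under housekeeping centring (0.48).

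Of 26 acute phase and interferon-gamma genes, 23 were measured. Relative to siNT, 0 were called in siMESH1, 1 in siATF4 (higher) and 2 in siMESH1+siATF4 (1 higher and 1 lower), against 8.19%, 6.52% and 9.65% of all genes. The called genes of this list are named after their values were seen. The higher one was GBP1, an interferon-induced GTPase, which rose by 0.87 ± 0.08 in siATF4 (limma adjusted p = 2.6e-06) and by 1.25 ± 0.08 in siMESH1+siATF4 (limma adjusted p = 5.4e-08). The lower one was PSMB8, an immunoproteasome subunit (-0.59 ± 0.05, limma adjusted p = 1.3e-06), a call lost under housekeeping centring (-0.36). In siMESH1+siATF4 against siMESH1, 3 were higher and 0 lower, against 6.10% of all genes, with a median of 0.13. These were GBP1 (1.24 ± 0.08), the immunoproteasome subunit PSMB9 (0.66 ± 0.06) and the adhesion molecule ICAM1 (0.52 ± 0.06), whose call was lost without siMESH1 replicate 3 (0.47), without siMESH1+siATF4 replicate 1 (0.49) and under housekeeping centring (0.48).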

How the data were processed

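RNA of 12 RCC4 cultures was hybridised to Affymetrix human arrays. For the deposited log2 values, the authors ran RMA in Affymetrix Expression Console and subtracted the siNT mean of each probe set. Their versions were not given in the sources used. No level remains, so no gene was filtered on it, and 3 arrays per group limit the precision.

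Of 22277 probe sets, 19064 had exactly 1 symbol in the platform table (19052 updated by Entrez identifier), 1043 had several and 2108 none. Gene values were means of the probe sets, which gave 11963 genes. The limma package (3.58.1, R 4.3.3) fitted all 12 arrays at once through lmFit and eBayes, with group means alone (8 residual degrees of freedom), and standard errors are those of the fit. Calls required a difference of at least 0.5, the fold minimum of the methods on the log2 scale, and an adjusted p (Benjamini-Hochberg, all genes) under 0.05. The interaction was the effect of siATF4 in siMESH1 cells less its effect in siNT cells. The fit was tested on simulated data. Probe sets were fitted in the same way.

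The 9 genes and all gene lists were chosen with earlier results of these data known. Named were all 9 genes, every gene of the complement and regulator lists called in a comparison of 2 groups, and the 3 genes most correlated with each of the 9. Same-numbered replicates of different groups had deviations that correlated between -0.19 and 0.10, and different-numbered ones between -0.17 and 0.24. The numbers were not used to pair samples, though this check cannot show that the replicates were handled apart. Alternatives covered the scaling, the probe set summary, a replicate block, the test, the fold minimum and each left-out array. Promoter windows are RefSeq's (GRCh38.p14). Python 3.11.15, pandas 2.3.3, numpy 2.4.6 and matplotlib 3.10.9 were used.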

Additional observations from a re-analysis of the deposited data

Results flagged for a closer look

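The siATF4 effect differed with and without MESH1 siRNA for C3 and for 2 of the 23 other complement regulators and receptors measured, by the interaction term of the limma fit. Of all genes, 4.31% had a called interaction. The list was chosen with earlier results of these data known, so its adjusted p-values are descriptive. C3 had an interaction of 0.85 ± 0.10, from effects of 1.33 on top of siMESH1 and 0.48 alone, and was selected on these same arrays. THBD had an interaction of 0.88 ± 0.11 (limma adjusted p = 2.0e-04), from effects of 1.58 on top of siMESH1 and 0.71 alone. SUSD4 had one of -0.73 ± 0.08 (limma adjusted p = 5.6e-05), from effects of -0.39 on top of siMESH1 and 0.34 alone.

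Signal for complement component C4, the substrate of C1s, stood in probe sets outside the comparisons of single genes, because the platform table gives them to C4A, C4B and C4B_2 together and the copies cannot be told apart. Over a fit of all 22215 probe sets other than controls, added after the data were seen, probe set 208451_s_at was 0.71 ± 0.08 (limma adjusted p = 1.2e-05) and probe set 214428_x_at 0.78 ± 0.10 (limma adjusted p = 4.2e-05) higher in siMESH1+siATF4 than in siNT, where 9.79% of probe sets were called. The first read 0.68, 0.75 and 0.71 in siMESH1+siATF4, against -0.15, -0.02 and 0.17 in siNT. The second read 1.01, 0.59 and 0.76 in siMESH1+siATF4, against 0.08, 0.01 and -0.09 in siNT. Both were also called in siMESH1+siATF4 against siMESH1 (0.57 ± 0.08 and 0.66 ± 0.10), where 6.38% of probe sets were, and neither in siMESH1 against siNT (0.15 ± 0.08 and 0.12 ± 0.10). In siATF4 against siNT, where 6.45% were called, the second was called (0.55 ± 0.10, limma adjusted p = 0.0011) and the first was not (0.31 ± 0.08).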

How the results depend on the processing

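Under the alternatives, 18 counts of called members moved by more than 1.5 times, and 0 differences of a called member changed sign. Against siNT, housekeeping centring gave 2 called genes with siMESH1, 4 with siATF4 and 5 with siMESH1+siATF4. It raised the shares of all genes called there above the 8.19%, 6.52% and 9.65% as reported. It also moved the split of calls over all genes, for example to 1656 higher and 339 lower in siMESH1 against siNT, where 337 were higher and 643 lower as reported, to 796 and 308 in siATF4 (298 and 482 as reported), to 1537 and 369 in siMESH1+siATF4 against siNT (526 and 628), to 74 and 128 in siMESH1+siATF4 against siATF4 (42 and 153), to 686 and 408 in siMESH1 against siATF4 (468 and 568) and to 217 and 793 in the interaction (414 and 102). With no fold minimum 6, 7 and 8 genes were called in siMESH1, siATF4 and siMESH1+siATF4 against siNT, where 33.6%, 28.6% and 35.6% of all genes were. It gave 6 in siMESH1+siATF4 against siMESH1 (28.0% of all genes), 1 in siMESH1+siATF4 against siATF4 (11.7%) and 8 in siMESH1 against siATF4 (33.5%). A fold minimum of 1 on the log2 scale left 0 in siATF4 and 0 in siMESH1+siATF4 against siNT, where 1.42% and 2.35% of all genes were called. It left 1 in siMESH1+siATF4 against siMESH1 (0.777% of all genes), 1 in siMESH1 against siATF4 (1.38%) and 0 in the interaction (0.853%). Leaving out 1 array at a time gave, against siNT, 1 to 2 calls with siMESH1, 2 to 3 with siATF4 and 1 to 4 with siMESH1+siATF4, with 1 without siNT replicate 3 and 4 without siNT replicate 2. It gave 3 in each case in siMESH1+siATF4 against siMESH1 and 0 in siMESH1+siATF4 against siATF4. It gave 3 to 4 in siMESH1 against siATF4 and 1 in the interaction. The shares of all genes called without 1 array stayed near those as reported. As reported they were 8.19%, 6.52% and 9.65% for the groups against siNT. For the other comparisons, in the order above, they were 6.10%, 1.63%, 8.66% and 4.31%. A replicate block changed none of the calls (1, 2, 2, 3, 0, 4 and 1 genes in the 7 comparisons). The calls of C3 and C1R were kept under all alternatives at the same fold minimum, and those of C1S and CFB that were lost are given with their values above. C3, C1R and C1S were each read by 1 probe set, so the alternatives of the probe set summary could not change their values. For C1R and C1S, whose probe set suffix marks possible cross-hybridisation, that possibility was not tested. Such a suffix also stands on all probe sets of CD46, CD55 and C4. The cause of the shifts under the alternatives was not tested. With 3 arrays per group and no signal levels, differences of dim probe sets cannot be told from noise.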
